A study of Mus musculus with 23 samples.

Results

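Bahcc1, Ahnak2, Mical3, Ino80d, Rere, Slc23a2, Il17ra and Atrn are 8 of the 56748 genes counted in 23 B16-F1 melanomas grown in mice. They were chosen from readings of these same tumors, as long genes among the leading increases over the DMSO control in 1 or more of the groups injected into the tumor. Their differences from that control are therefore described and not tested. In the groups injected into the peritoneum, which the choice did not use, they were tested. Ranked by unadjusted p among the genes that were higher, each of the 8 stood between place 2 and place 10 in at least 1 of the 3 intratumoral drug groups. By size of change they did not lead, with ranks from 702 to 3280 among the 6372 to 6495 genes that were higher.

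B16-F1 is a pigmented mouse melanoma line, and it was placed under the skin of the right flank of DBA/2J mice aged 6 to 8 weeks, a strain other than the one the line came from. Pentoxifylline (PTX, a methylxanthine, 60 mg/kg), norcantharidin (NCTD, a demethylated analog of cantharidin, 3 mg/kg) or both (MIX) were given into the peritoneum (IP) or into the tumor (IT). The IP groups were CTRL_IP, PTX_IP, NCTD_IP and MIX_IP with 2 tumors each, and their control received saline. The IT groups were CTRL_IT, NCTD_IT and MIX_IT with 4 tumors each and PTX_IT with 3, and their control received DMSO, the solvent of the IT drugs. Every animal carried the same tumor line, and the labels give the route as the batch, so route, solvent and batch cannot be told apart. Nothing in the labels names litters or days, so the spread is that between tumors. Levels are CPM, the counts of a gene per 1000000 counts of its tumor after scaling over all 23 tumors.

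The 8 genes fall into 3 kinds by role. Bahcc1, Rere and Ino80d act on chromatin: a BAH domain protein that binds a repressive histone mark, a corepressor of the atrophin family that recruits histone deacetylases, and a subunit of the INO80 nucleosome remodeller. Mical3 and Ahnak2 work at the cytoskeleton and membrane, the first as a flavin monooxygenase that oxidises actin and helps vesicles dock, the second as a very large scaffold-like relative of Ahnak. Slc23a2, Il17ra and Atrn are proteins of the plasma membrane: a sodium-coupled vitamin C transporter, the shared receptor subunit for IL-17 cytokines, and attractin, which agouti protein needs in order to switch melanocytes from dark to yellow pigment. A melanoma contains its tumor cells together with vessels, fibroblasts and leukocytes. In bulk tumors fewer cells of a type and less RNA per cell cannot be told apart.

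All 8 genes are long. Their listed lengths ran from 7951 bases (Slc23a2) to 23038 bases (Mical3), and 81.7% to 99.6% of the genes tested by the IT route were shorter. On GRCm39 they span 24.3 kb (Il17ra, chr6:120440208-120464520) to 340.3 kb (Rere, chr4:150366103-150706423). Length was part of the choice and is no finding. There are 2 pairs that share a chromosome: Atrn (chr2:130748415-130872253) and Slc23a2 (chr2:131894416-131987028), with 35 listed genes in the 1.02 Mb between them, and Il17ra and Mical3 (chr6:120908668-121107959), with 16 genes in 0.444 Mb. The others lie on chromosome 1 (Ino80d, 62997577 to 63153849), chromosome 11 (Bahcc1, 120123773 to 120183108) and chromosome 12 (Ahnak2, 112738628 to 112766277).

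Start-site windows of 250 bases before to 50 bases after a listed start were read from RefSeq on the older build GRCm38.p6 for 6 of the 8 genes (8 windows). The table used held no entry for Ino80d and Il17ra. The motifs searched on both strands were CACGTG and CATGTG (E-boxes, the kind that melanocyte factors such as Mitf bind), TGACTCA (AP-1), GGGCGG (the GC box of Sp factors) and TGACG (the core of the CREB site). Windows of 4 genes are shown because these genes stood higher together while their start regions differ, from a GC box cluster to none of the motifs. Capitals mark the motif matches, with CCGCCC as GGGCGG read on the other strand.
Atrn, chr2:130906245-130906544, plus strand: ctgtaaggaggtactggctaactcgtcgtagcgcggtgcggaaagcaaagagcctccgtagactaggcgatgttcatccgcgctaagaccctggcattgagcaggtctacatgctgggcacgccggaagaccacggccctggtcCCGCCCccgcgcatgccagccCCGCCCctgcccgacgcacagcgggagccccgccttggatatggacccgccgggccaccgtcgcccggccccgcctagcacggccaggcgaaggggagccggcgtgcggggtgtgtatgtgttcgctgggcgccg
Slc23a2, chr2:132145059-132145358, minus strand: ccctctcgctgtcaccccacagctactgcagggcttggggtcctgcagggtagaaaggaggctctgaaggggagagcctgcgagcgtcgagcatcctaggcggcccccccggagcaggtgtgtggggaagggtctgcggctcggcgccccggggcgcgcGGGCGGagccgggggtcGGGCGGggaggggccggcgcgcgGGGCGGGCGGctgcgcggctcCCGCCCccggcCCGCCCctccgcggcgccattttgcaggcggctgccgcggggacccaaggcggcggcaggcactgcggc
Mical3, chr6:121081578-121081877, minus strand: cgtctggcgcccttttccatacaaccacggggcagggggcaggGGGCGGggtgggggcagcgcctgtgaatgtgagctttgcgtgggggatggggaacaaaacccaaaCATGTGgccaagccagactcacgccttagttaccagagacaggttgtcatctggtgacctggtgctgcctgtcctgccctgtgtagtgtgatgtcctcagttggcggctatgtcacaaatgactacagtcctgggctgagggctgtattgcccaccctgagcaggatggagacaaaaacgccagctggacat
Bahcc1, chr11:120232697-120232996, plus strand: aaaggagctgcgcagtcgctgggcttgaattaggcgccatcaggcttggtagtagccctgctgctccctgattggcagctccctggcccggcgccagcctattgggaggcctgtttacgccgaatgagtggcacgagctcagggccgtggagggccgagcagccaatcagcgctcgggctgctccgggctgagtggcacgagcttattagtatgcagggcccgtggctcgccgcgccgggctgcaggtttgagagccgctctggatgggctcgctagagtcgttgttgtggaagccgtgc
GGGCGG was found 6 times in this Slc23a2 window, 2 times in that of Atrn and 1 time in the Mical3 window shown. Of all 32817 windows 35.6% held it. A second Mical3 window, farther upstream (chr6:121130973-121131272), held none of the motifs. CATGTG was found 1 time each in the Mical3 window shown and in that of Ahnak2, against 14.2% of all windows. TGACG was found 2 times in a second Slc23a2 window (chr2:132145271-132145570) against 20.8%. CACGTG and TGACTCA were in none of the 8 windows (7.15% and 5.20% of all). No motif was common to the genes. Their windows held 56.7% to 78.3% G and C, against a median of 52.7% over all windows.

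The tumors carried the melanoma markers they should. The 8 melanocyte and melanoma genes (Mitf, Tyr, Dct, Pmel and others) summed to between 14332 and 35577 CPM in every tumor. Totals ran from 2861578 to 6702374 counts with a median of 4013068, so that 3 counts, the limit that a count of 0 allows, stood for 0.449 to 1.04 CPM, counting error only. Every value of the 8 genes was far above that limit, and all 8 passed the filter on low counts by both routes.

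With injection into the tumor, each of the 8 genes stood higher in each of the 3 drug groups than in CTRL_IT. The median log2 fold change of the 8 was 0.98 in NCTD_IT, 0.72 in PTX_IT and 0.82 in MIX_IT, while that of all 12480 genes tested was 0.03, 0.02 and 0.01, with 52%, 51.6% and 51.1% of them above 0. The edgeR quasi-likelihood test called 6 of the 8 higher in NCTD_IT, where it called 0.921% of all genes higher and 1.37% in either direction, and DESeq2 called 7 (10.6% of its genes). In PTX_IT and in MIX_IT it called 0 of the 8 and 0 of all genes (0%), although the unadjusted p was under 0.05 for all 8 in each of the 3 comparisons, as it was for 21.6%, 6.35% and 13% of all genes in NCTD_IT, PTX_IT and MIX_IT, and DESeq2 called 0 and 6 of the 8 (0.0969% and 1.92% of its genes). These counts restate how the genes were chosen. The NCTD_IT count was 0 when CTRL_IT 9, CTRL_IT 11, CTRL_IT 12, NCTD_IT 17 or NCTD_IT 18 was left out, and 6 without any of the other 3 tumors, while the median stayed between 0.93 and 1.03.

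Among the chromatin genes, Bahcc1 stood at 34.8, 28.04, 29.0 and 26.3 CPM in CTRL_IT tumors 9, 10, 11 and 12. It stood at 47.7, 57.0 and 42.9 CPM in PTX_IT tumors 13, 15 and 16, at 65.7, 52.6, 52.9 and 58.1 CPM in NCTD_IT tumors 17 to 20 and at 46.5, 56.5, 61.2 and 47.0 CPM in MIX_IT tumors 21 to 24. All 11 drug-treated tumors lay above the highest control. The log2 fold changes were 0.96 ± 0.16 (SE) in NCTD_IT, 0.73 ± 0.17 in PTX_IT and 0.83 ± 0.16 in MIX_IT.

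Rere read 199.8, 219, 204 and 207 CPM in the controls. It read 278, 312 and 238 CPM in PTX_IT, 293, 315, 308 and 287 CPM in NCTD_IT and 338, 281, 388 and 338 CPM in MIX_IT, in the same order of tumors. No treated tumor overlapped a control, but the step was small, with log2 fold changes of 0.53 ± 0.14 (SE), 0.41 ± 0.15 and 0.69 ± 0.14 in NCTD_IT, PTX_IT and MIX_IT. Rere was 1 of the 2 genes (with Ahnak2) that were highest in MIX_IT.

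Ino80d showed the largest difference of the 8, in NCTD_IT. Its CTRL_IT tumors read 16.7, 24.5, 27.2 and 23.5 CPM and its NCTD_IT tumors 57.7, 67.0, 58.1 and 58.9 CPM, a log2 fold change of 1.39 ± 0.23 (SE). PTX_IT ranged widely, at 42.9, 58.7 and 26.5 CPM (0.88 ± 0.24), and tumor 16 there fell within the control range. MIX_IT read 36.2, 44.5, 51.0 and 34.8 CPM (0.85 ± 0.23), above every control and below every NCTD_IT tumor.

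Of the cytoskeletal genes, Mical3 read 61.0, 64.9, 75.3 and 63.9 CPM in CTRL_IT and 141, 132, 125 and 129 CPM in NCTD_IT. PTX_IT stood at 104, 136 and 77.1 CPM and MIX_IT at 86.9, 104, 92.2 and 96.9 CPM, each above every control. The log2 fold change was 0.99 ± 0.16 (SE) in NCTD_IT, 0.67 ± 0.17 in PTX_IT and 0.52 ± 0.16 in MIX_IT.

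Ahnak2 ran the other way. It read 27.6, 39.7, 39.8 and 43.3 CPM in CTRL_IT, 45.4, 55.2, 51.9 and 48.3 CPM in NCTD_IT, 66.1, 66.7 and 53.2 CPM in PTX_IT and 71.5, 65.9, 62.4 and 66.6 CPM in MIX_IT. Its log2 fold change was smallest in NCTD_IT (0.41 ± 0.16, SE), where the others except Rere were largest, and reached 0.72 ± 0.18 in PTX_IT and 0.82 ± 0.16 in MIX_IT. All 4 MIX_IT tumors lay above all 4 NCTD_IT tumors.

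Of the membrane proteins, the vitamin C transporter Slc23a2 read 19.8, 35.3, 22.2 and 23.2 CPM in CTRL_IT, where tumor 10 stood above the other controls. NCTD_IT read 54.8, 65.2, 52.6 and 68.0 CPM, PTX_IT 39.9, 63.2 and 31.8 CPM and MIX_IT 40.5, 43.2, 50.003 and 44.3 CPM. PTX_IT tumor 16 was the single treated tumor below the highest control, and without tumor 15 the PTX_IT log2 fold change was 0.51. Log2 fold changes were 1.25 ± 0.22 (SE), 0.83 ± 0.24 and 0.82 ± 0.22 in NCTD_IT, PTX_IT and MIX_IT.

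Il17ra read 23.9, 28.9, 23.4 and 22.3 CPM in CTRL_IT and 62.4, 64.9, 58.1 and 54.9 CPM in NCTD_IT, a log2 fold change of 1.28 ± 0.22 (SE). MIX_IT stood at 34.3, 52.0, 51.0 and 51.3 CPM (0.93 ± 0.22), with tumor 21 apart from the other 3. PTX_IT stood at 37.3, 55.1 and 24.4 CPM (0.65 ± 0.23), spanning the range from the controls to the NCTD_IT tumors. Tumor 16 again lay inside the control range, and the PTX_IT value was 0.33 without tumor 15 and 0.89 without tumor 16.

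Atrn read 60.0, 57.6, 58.0 and 42.4 CPM in CTRL_IT, 123, 105, 76.1 and 106 CPM in NCTD_IT, 93.1, 105 and 79.6 CPM in PTX_IT and 104, 80.2, 96.8 and 85.9 CPM in MIX_IT. Every treated tumor lay above every control. Its log2 fold changes were the most alike across the drugs, at 0.91 ± 0.18 (SE), 0.76 ± 0.19 and 0.75 ± 0.18 in NCTD_IT, PTX_IT and MIX_IT.

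**Figure D1:**
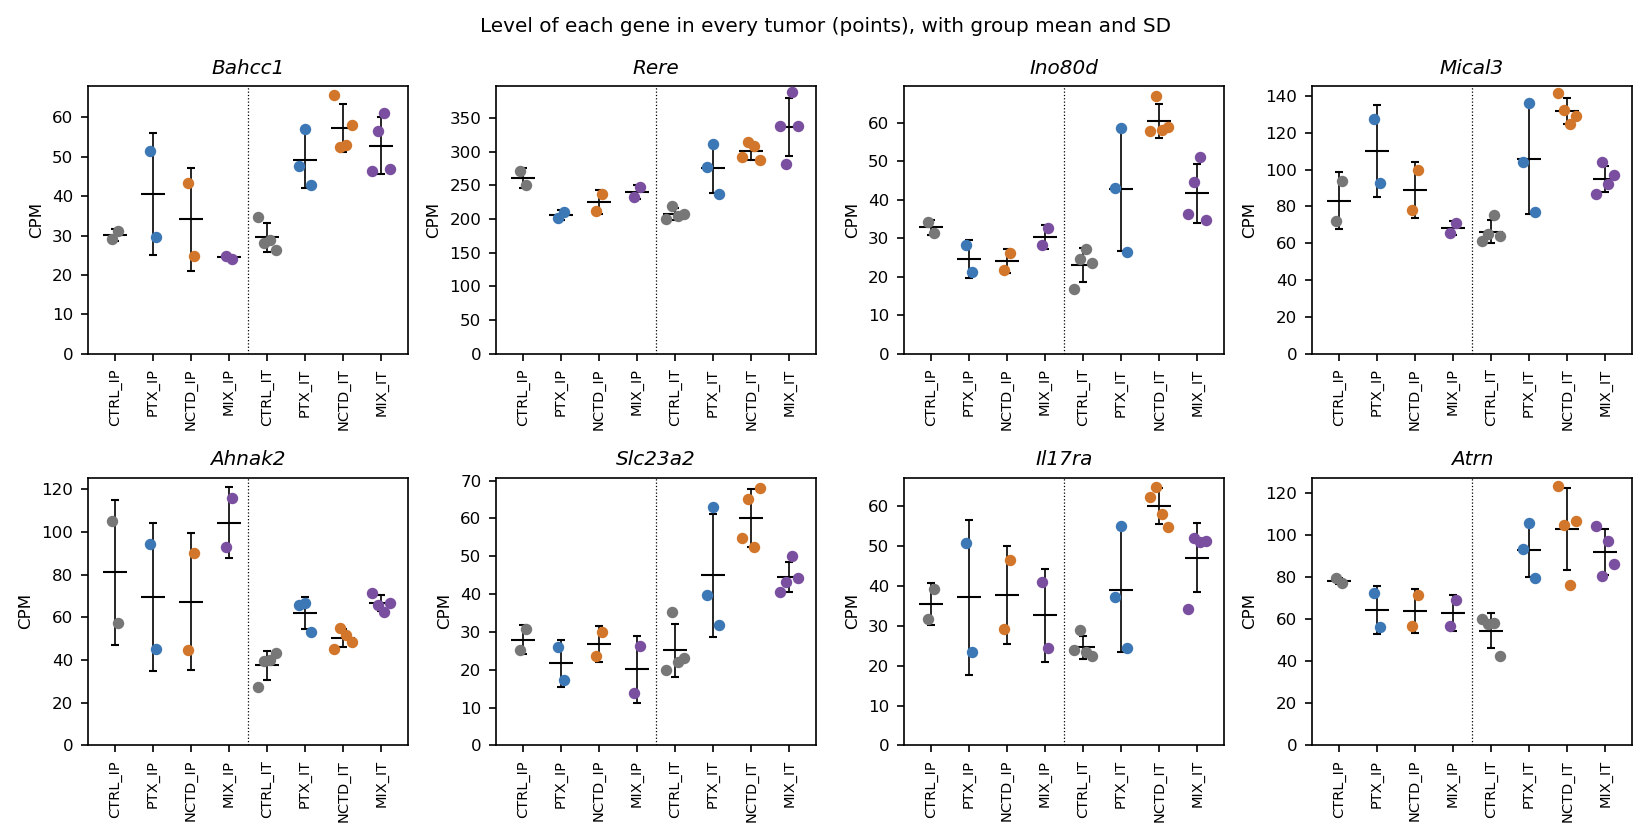
Level of each of the 8 genes (CPM, from 0) in every tumor of the 8 groups, with the group mean (line) and SD (bar) and a dotted line between the IP and IT routes. The mean of each IT drug group stands above that of CTRL_IT for every gene, although PTX_IT tumor 16 overlaps the controls for Ino80d, Slc23a2 and Il17ra. The IP drug tumors lie below both CTRL_IP tumors for Rere and Atrn and overlap them for the other genes.

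Read gene by gene, all 11 treated IT tumors stood above all 4 controls for Bahcc1, Ahnak2, Mical3, Rere and Atrn (5 of 8), a pattern that 0.897% of the 12480 genes showed and 2.12% of the 2495 genes in the longest length group. For Ino80d, Slc23a2 and Il17ra it was 10 of 11, and the exception was PTX_IT tumor 16 each time. Within single drugs, the groups did not overlap for 8, 5 and 8 of the genes in NCTD_IT, PTX_IT and MIX_IT, against 7.82%, 3.81% and 4.93% of all genes. The choice of genes used these contrasts, so nothing further is read from those counts.

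The 3 drug groups were also set against each other. Between MIX_IT and NCTD_IT, Mical3, Ino80d, Slc23a2 and Il17ra were lower in all 4 MIX_IT tumors than in every NCTD_IT tumor, with log2 differences of -0.48 (95% interval -0.82 to -0.14), -0.54 (-1.01 to -0.07), -0.44 (-0.90 to 0.02) and -0.35 (-0.81 to 0.10). Over all genes 1.54% showed that pattern downward. Ahnak2 was higher by 0.41 (0.06 to 0.75), and 1.45% of all genes lay wholly above. Between PTX_IT and NCTD_IT the median of the 8 was -0.28 and between MIX_IT and PTX_IT 0.05, with no gene free of overlap in either. The choice used the same tumors, so these differences too are described without a test.

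The IP groups did not show the pattern. Against CTRL_IP the median log2 fold change of the 8 genes was -0.13 in NCTD_IP, -0.25 in PTX_IP and -0.19 in MIX_IP, beside -0.01, 0.01 and -0.01 for all 12424 genes tested. Of the 8, 3, 3 and 1 were above 0, beside 49.1%, 51.2% and 48.8% of all genes. The edgeR test called 0 of the 8 in each IP comparison (adjusted p from 0.906 to 0.999), as it called 0 of all genes (0%). The unadjusted p was under 0.05 for 0 of the 8, beside 3.59%, 5.3% and 2.94% of all genes, and DESeq2 called 0 of the 8 and 0.0787%, 0.0186% and 0.138% of its genes. Both treated tumors lay below both controls for 3, 3 and 4 of the 8, beside 18%, 16.1% and 18.9% of all genes. With 2 tumors a group, 1 tumor can carry a value: the PTX_IP median was -0.54 without tumor 3 and 0.05 without tumor 4.

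The mean of the 3 IP drug groups against CTRL_IP used all 8 IP tumors and gave the closest limits. The median of the 8 genes was -0.12, and 0 were called (adjusted p from 0.992 to 0.998) by edgeR, beside 0% of all genes, and 0 by DESeq2, beside 0.00423%. The unadjusted p was under 0.05 for 0 of the 8 and 3.87% of all genes, and 3 of the 8 and 47.8% of all genes were above 0. The chromatin genes Ino80d and Rere stood at -0.31 (95% interval -0.73 to 0.10) and -0.22 (-0.52 to 0.09), and Bahcc1 at 0.11 (-0.49 to 0.70). Mical3 stood at 0.08 (-0.35 to 0.50) and Ahnak2 at -0.03 (-0.82 to 0.75). The membrane proteins Slc23a2, Il17ra and Atrn stood at -0.30 (-0.90 to 0.31), 0.02 (-0.70 to 0.74) and -0.29 (-0.67 to 0.09). For Ahnak2 and Il17ra these upper limits (0.75 and 0.74) lay above the smallest IT log2 fold change of the gene (0.41 and 0.65). An increase of that size was not excluded for them by the IP route. For the other 6 genes the limit of the mean lay below, narrowly so for Bahcc1 and Mical3. The smallest IT value is a point estimate from contrasts that chose the genes, so the limit is no test against it. Single IP groups left wider limits, up to 1.34 for Ahnak2 in MIX_IP. In PTX_IP, Bahcc1 stood at 0.43 with a limit of 1.15 and Mical3 at 0.41 with a limit of 0.92. Those limits lay above the PTX_IT values of the 2 genes (0.73 and 0.67), so an increase of that size under PTX was not excluded for them. The values also leaned on each CTRL_IP tumor. Ahnak2 stood at 0.47 without tumor 1 and at -0.41 without tumor 2, and Mical3 at -0.10 and 0.28. The difference between the routes was not tested.

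The tumors behind those limits were these. Rere read 271 and 249.8 CPM in CTRL_IP tumors 1 and 2, 201 and 211 CPM in PTX_IP 3 and 4, 213 and 237 CPM in NCTD_IP 5 and 6 and 233 and 248 CPM in MIX_IP 7 and 8. Atrn read 79.2 and 77.1, 72.2 and 56.3, 56.6 and 71.1 and 56.6 and 69.0 CPM in the same order. For both genes all 6 treated tumors lay below both controls, which 3.78% of all genes showed, no gene of the 8 lay wholly above (3.43% of all), and neither passed the test.

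Ino80d read 34.2 and 31.4 CPM in CTRL_IP, 28.1 and 21.2 in PTX_IP, 21.8 and 26.3 in NCTD_IP and 28.2 and 32.5 in MIX_IP, and 5 of the 6 treated tumors lay below both controls. Slc23a2 read 25.2 and 30.6, 26.0 and 17.3, 23.5 and 30.1 and 13.8 and 26.4 CPM, with 3 of 6 below both. Bahcc1 read 29.1 and 31.2, 51.5 and 29.7, 43.4 and 24.8 and 24.8 and 24.1 CPM, with 2 of 6 above both controls and 3 below. For each of these 3 genes the treated tumors overlapped the controls.

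Mical3 read 72.2 and 94.0 CPM in CTRL_IP, 128 and 92.6 in PTX_IP, 78.1 and 99.8 in NCTD_IP and 65.5 and 71.0 in MIX_IP. Il17ra read 31.8 and 39.2, 50.9 and 23.4, 29.1 and 46.6 and 41.0 and 24.4 CPM, so that the 2 tumors of each drug group lay farther apart than the controls. Ahnak2 read 105 and 57.2, 94.3 and 45.2, 44.5 and 90.01 and 92.9 and 116 CPM, and its 2 controls lay about as far apart as the 2 tumors of PTX_IP.

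**Figure D2:**
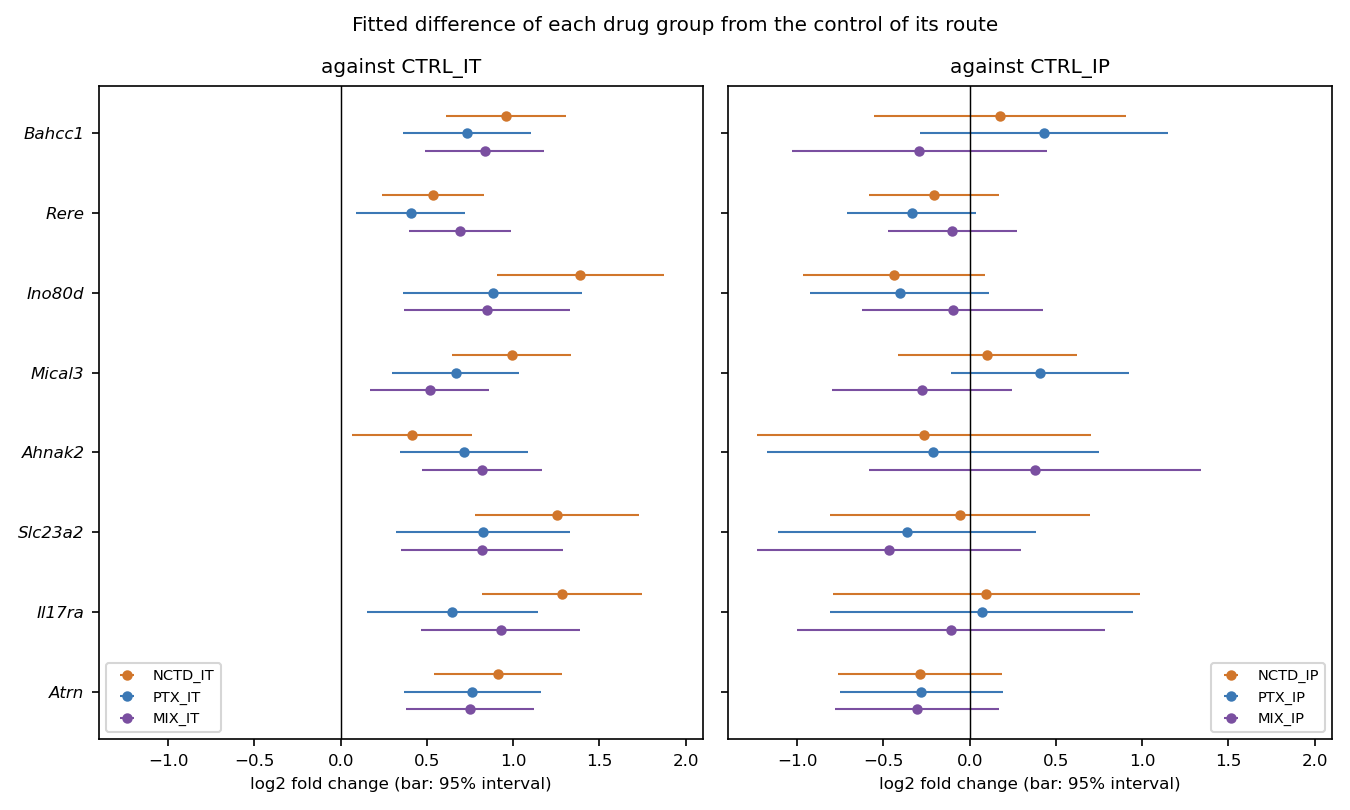
Fitted log2 fold change of each gene (points) with its 95% interval (bars), for the IT drug groups against CTRL_IT (left) and the IP drug groups against CTRL_IP (right). The IT values run from 0.41 to 1.39, and the IP intervals all include 0.

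The starting levels of the routes also differed. The mean of the 2 CTRL_IP tumors was above that of the 4 CTRL_IT tumors for all 8 genes, by a ratio of 1.02 (Bahcc1) to 2.16 (Ahnak2), while 50.8% of the 12059 genes tested by both routes were higher in CTRL_IP. Both CTRL_IP tumors lay above all 4 CTRL_IT tumors for Ahnak2, Ino80d, Rere, Il17ra and Atrn (5 of 8), as for 11% of those genes. Set against the highest CTRL_IT tumor, all 8 IP tumors were higher for Ahnak2, 6 for Il17ra, 5 each for Mical3, Ino80d, Rere and Atrn, 2 for Bahcc1 and 0 for Slc23a2. The choice favoured genes that were low in CTRL_IT, and the routes differ in solvent and batch, so this is a description.

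Length went with the direction of change over all genes. When the tested genes were split by listed length into 5 groups of near-equal size, the median log2 fold change in NCTD_IT went from -0.14 in the shortest to 0.18 in the longest. It went from -0.09 to 0.13 in PTX_IT and from -0.14 to 0.12 in MIX_IT. By the IP route it went the other way, from 0.12 to -0.09 in NCTD_IP, from 0.12 to -0.07 in PTX_IP and, with no steady course in between, from 0.03 to -0.03 in MIX_IP. All 8 genes were in the longest group (7621 bases and above by the IT route), which held 51 of the 115 genes called higher in NCTD_IT (2.04% of that group). Taken relative to the median of the longest group, a step chosen after seeing the data, the medians of the 8 were 0.80, 0.60 and 0.70 in NCTD_IT, PTX_IT and MIX_IT and -0.04, -0.18 and -0.16 in NCTD_IP, PTX_IP and MIX_IP.

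**Figure D3:**
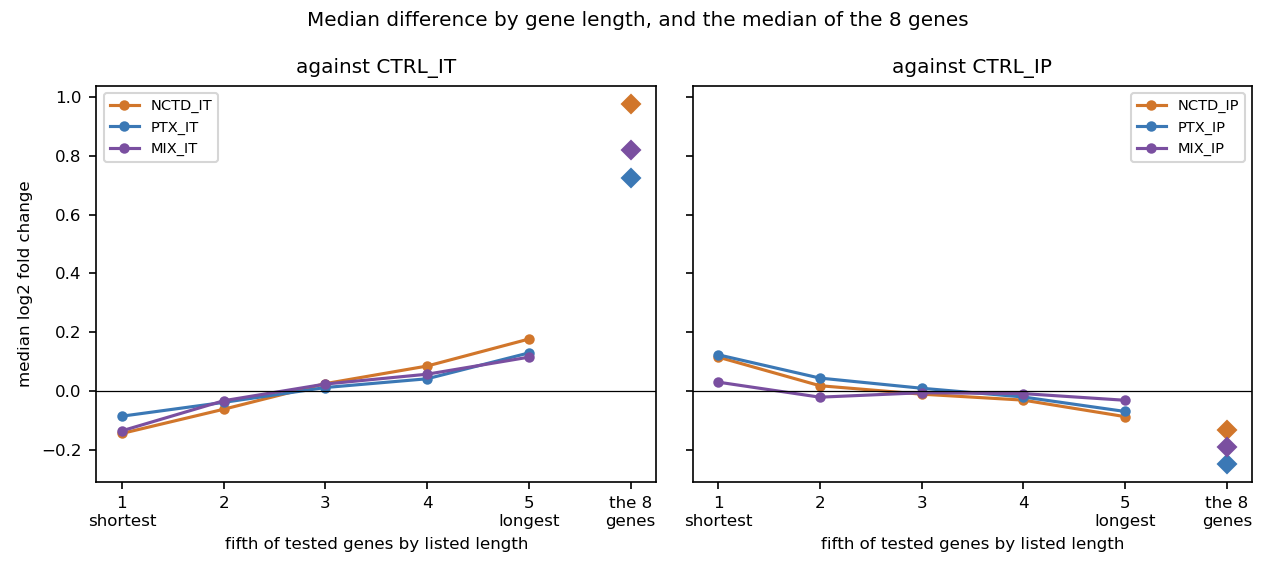
Median log2 fold change of all tested genes in 5 groups by listed length (lines) and of the 8 genes (diamonds), for the IT route (left) and the IP route (right). The lines climb with length by the IT route and descend for NCTD_IP and PTX_IP, while that of MIX_IP is nearly flat after the shortest group, and the diamonds of the IT route (0.72 to 0.98) lie above every length group.

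Other readings of the libraries moved with the 8 genes by the IT route. Malat1, a nuclear-retained long RNA, stood at 76.3 to 96.5 CPM in CTRL_IT, 279 to 693 CPM in NCTD_IT, 74.2 to 424 CPM in PTX_IT and 156 to 498 CPM in MIX_IT. Neat1, the RNA scaffold of paraspeckles, stood at 167 to 253, 409 to 802, 209 to 592 and 349 to 551 CPM in the same groups. PTX_IT tumor 16, the low tumor for Ino80d, Slc23a2 and Il17ra, was also the lowest treated tumor for Malat1 (74.2 CPM) and Neat1 (208.8 CPM). Ribosomal protein genes took 8.73% to 10.3% of the counts in CTRL_IT, 6.56% to 8.17% in NCTD_IT, 6.77% to 9.77% in PTX_IT and 6.72% to 8.55% in MIX_IT. Mitochondrial genes took 2.42% to 2.68%, 2.47% to 6.32%, 2.97% to 3.86% and 3.57% to 5.73%. Of the 8 nuclear-retained RNAs tested, 3 were called higher in NCTD_IT (Malat1, Neat1 and Xist), beside 0.921% of all genes. Xist is also a sex-linked reading, described below. In PTX_IT and MIX_IT 0 were called, where the edgeR test called no gene at all. By the IP route Malat1 stood at 108 to 148 CPM in CTRL_IP and 69.5 to 178 CPM in the drug groups. Neat1 stood at 392 to 401 CPM in CTRL_IP and 233 to 647 CPM in the drug groups. Ribosomal protein genes took 7.56% to 7.93% and 8.04% to 9.62%, and mitochondrial genes 3.69% to 4.29% and 2.44% to 3.62%. In each of these readings both CTRL_IP tumors lay outside the CTRL_IT range, on the side of most treated IT tumors. The part of these readings in the values of the 8 genes was not tested.

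**Figure D4:**
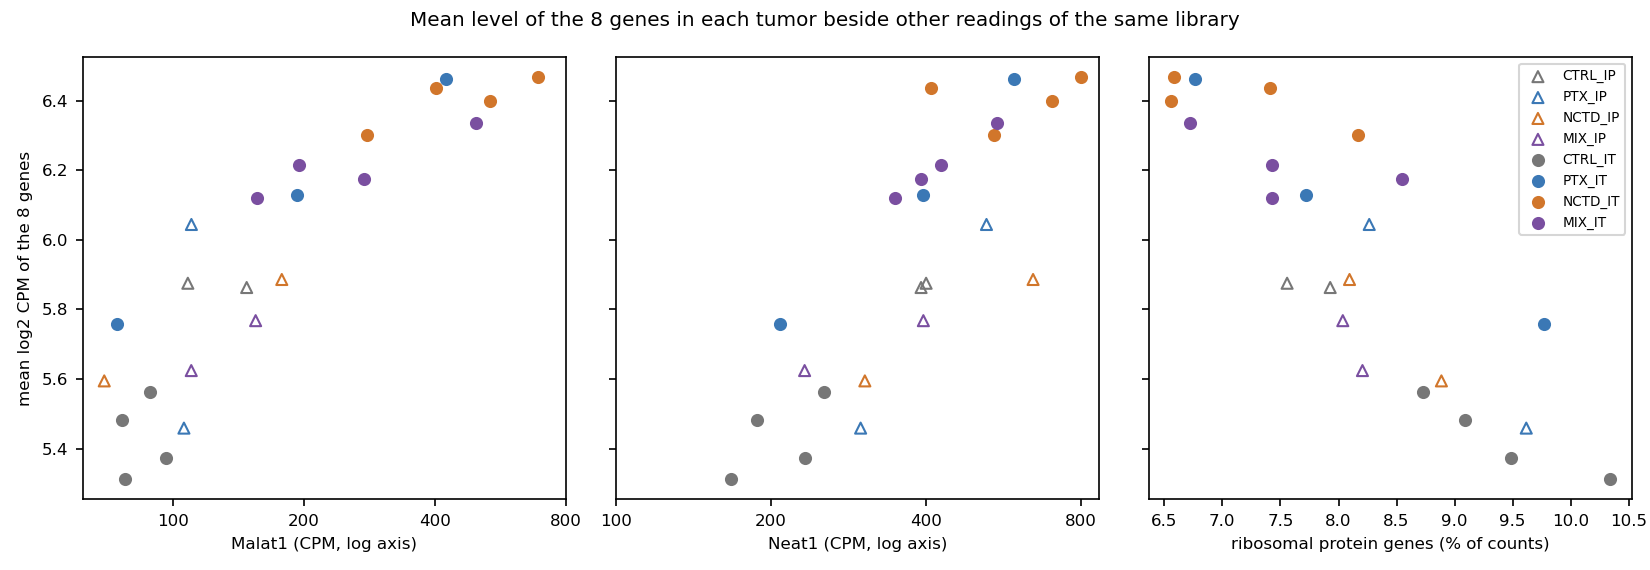
Mean log2 CPM of the 8 genes in each of the 23 tumors against Malat1 (CPM, log axis), Neat1 (CPM, log axis) and the share of counts from ribosomal protein genes (percent), with filled circles for IT and open triangles for IP. CTRL_IT tumors sit at the low end of the 8 genes (5.31 to 5.56), and PTX_IT tumor 16 (5.76) lies nearest to them among the treated IT tumors.

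The sex-linked genes separated the IT groups as well. Xist, which is made from an inactive X chromosome, stood at 5.19 to 13.6 CPM in NCTD_IT and 1.28 to 11.6 CPM in PTX_IT, at 0.57 CPM or less in CTRL_IT and at 0 in MIX_IT. The Y-linked Ddx3y stood at 0.294 CPM or less in NCTD_IT and PTX_IT, at 1.03 to 8.98 CPM in CTRL_IT and at 6.83 to 15.5 CPM in MIX_IT. With log2 CPM of Xist as a covariate, the median of the 8 genes was 0.39 in NCTD_IT, 0.16 in PTX_IT and 0.86 in MIX_IT. The edgeR test then called 0, 0 and 2 (Ahnak2 and Rere), beside 0%, 0% and 0.176% of all genes. The choice of genes used these contrasts, so nothing further is read from these counts. Single values then turned below 0, for Ahnak2 in NCTD_IT (-0.07) and for Il17ra (-0.14), Slc23a2 (-0.06) and Ino80d (-0.04) in PTX_IT. No tumor of CTRL_IT reached the Xist level of any NCTD_IT or PTX_IT tumor, so drug and sex-linked reading cannot be told apart in these groups. The weight of the covariate therefore rested on differences in Xist within groups. In PTX_IT tumors 13, 15 and 16, Xist read 9.20, 11.6 and 1.28 CPM, all with Ddx3y at 0.279 CPM or less. The mean log2 CPM of the 8 genes there was 6.13, 6.46 and 5.76, in the same order as Xist. The IT values with the covariate are thus not an adjustment for sex. By the IP route CTRL_IP tumor 2 alone had Xist (8.26 CPM, with Ddx3y at 0.451 CPM), while the other 7 tumors had Xist at 0 and Ddx3y at 3.28 to 14.1 CPM. With the covariate the median of the 8 in the mean of the IP drug groups was -0.21. As CTRL_IP tumor 2 alone had Xist, that fit in effect left it out and rested on the other control. Atrn, for one, stood at -0.310 with the covariate and at -0.312 without CTRL_IP tumor 2. The study's methods describe the groups as matched for sex.

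Markers of the other cells of a tumor moved too. Over all genes 52%, 51.6% and 51.1% were above 0 in NCTD_IT, PTX_IT and MIX_IT. The edgeR test called 1.37% of all genes in NCTD_IT and 0% in PTX_IT and MIX_IT. Fibroblast genes (7, among them Col1a1 and Dcn) summed to 109 to 369 CPM in CTRL_IT, 391 to 1681 CPM in NCTD_IT, 259.9 to 812 CPM in PTX_IT and 494 to 8601 CPM (median 1388) in MIX_IT. Of the 6 tested, 6 were above 0 in each drug group with 0 called. Macrophage genes summed to 83.2 to 566, 343 to 1192, 84.5 to 1135 and 205 to 607 CPM in CTRL_IT, NCTD_IT, PTX_IT and MIX_IT, with 7 of 7 above 0 and 0 called. T cell genes summed to 0 to 31.3, 9.33 to 109, 1.80 to 64.8 and 0.24 to 46.7 CPM. Endothelial genes summed to 39.9 to 62.0, 76.8 to 146, 55.2 to 80.6 and 66.3 to 217 CPM, and Emcn was called higher in NCTD_IT. Neutrophil genes summed to 3.96 to 11.2 CPM in CTRL_IT and 18.1 to 1081 CPM (median 36.1) in NCTD_IT, where S100a8 and S100a9 were called higher. They summed to 9.50 to 19.7 CPM in PTX_IT and 14.5 to 19.7 CPM in MIX_IT. Keratinocyte genes were at or near 0 in CTRL_IT (0 to 0.88 CPM, 4 of 6 at 0 in all 4 tumors) and reached 13.8 CPM at most by the IT route. Muscle genes summed to 5.66 to 43.6, 6.95 to 248, 8.99 to 142 and 6.07 to 89.1 CPM, adipocyte genes to 67.9 to 85.2, 135 to 292, 85.5 to 169.8 and 76.1 to 521 CPM, and erythroid genes to 1238 to 6944, 258 to 1360, 302 to 2422 and 810 to 5149 CPM. The melanoma markers themselves overlapped between groups, at 24556 to 30721 CPM in CTRL_IT, 22552 to 29136 CPM in PTX_IT, 14332 to 27065 CPM in MIX_IT and 18133 to 25524 CPM in NCTD_IT, where Mitf alone of the 8 was called lower (451 ± 107 CPM, SD, n = 4, against 822 ± 143). The part of these cells in the result was not tested.

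The pathways around the 8 genes were read from lists of their partners. For the chromatin genes, 0 of 13 tested genes of the INO80 complex and 0 of 12 atrophin and deacetylase corepressors were called in any IT comparison. Of all genes 1.37% were called in NCTD_IT and 0% in PTX_IT and MIX_IT. The INO80 list had medians of 0.01, 0.07 and 0.08 in NCTD_IT, PTX_IT and MIX_IT, with Ino80 itself, the ATPase of the complex, at 0.01 ± 0.19 (SE) and the subunit Ino80b at -0.49 ± 0.34 in NCTD_IT, beside 1.39 for Ino80d. The corepressor list had medians of -0.05, 0.07 and 0.04, and Atn1, the atrophin nearest to Rere, stood at -0.11 ± 0.60 and the deacetylase Hdac1 at -0.51 ± 0.19 in NCTD_IT, neither called. Whether Ino80d and Rere differ from their partners was not tested.

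Among 8 tested MICAL relatives and actin partners, 1 was called higher in NCTD_IT, beside 0.921% of all genes. This was Ppfia1, a liprin of cell adhesions, at 101 ± 9.15 CPM (SD, n = 4) against 62.6 ± 10.9 (log2 fold change 0.70, edgeR adjusted p = 0.0491). The relatives Mical2 and Micall1 stood at 0.85 ± 0.42 (SE) and 0.30 ± 0.38 there and were not called. Of 4 tested Ahnak partners 0 were called. Ahnak itself stood at 1.11 ± 0.38 in NCTD_IT, 0.93 ± 0.41 in PTX_IT and 0.91 ± 0.38 in MIX_IT, and S100a10, another gene of that list, at -0.44 ± 0.20, -0.19 ± 0.21 and -0.22 ± 0.20.

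Around the membrane proteins, 3 genes of vitamin C and dehydroascorbate transport were tested and 0 were called. The glucose transporters Slc2a1 and Slc2a3, which also carry the oxidised vitamin, stood at -0.46 ± 0.36 (SE) and -0.26 ± 0.40 in NCTD_IT beside 1.25 for Slc23a2. Of 9 tested genes of IL-17 receptor signalling, 9, 9 and 7 were above 0 in NCTD_IT, PTX_IT and MIX_IT, beside 52%, 51.6% and 51.1% of all genes. The medians of the 9 were 0.90, 0.47 and 0.37. Cxcl2, a chemokine that draws neutrophils, was the 1 gene of the 9 called, higher in NCTD_IT, beside 0.921% of all genes there. It read 37.9 to 1270 CPM in NCTD_IT against 8.49 to 17.1 CPM in CTRL_IT, with tumor 18 at the top. The coreceptor Il17rd stood at 0.40 ± 0.42 and the adaptor Traf6 at 0.41 ± 0.26, neither called. Of 4 tested genes of the agouti and melanocortin pathway 0 were called. Mgrn1, a ubiquitin ligase that acts with Atrn on pigment, stood at -0.25 ± 0.22 (SE) and Atrnl1, the relative of Atrn, at -0.17 ± 0.22 in NCTD_IT. Mc1r, the melanocortin receptor of melanocytes, singled out after its values were seen, read 486 ± 43.0 CPM (SD, n = 4) in CTRL_IT, 729.7 ± 102 in NCTD_IT and 756 ± 154 in MIX_IT, and was not called. By the IP route 0 genes of any partner list were called, in the mean of the 3 drug groups as in each, beside 0% of all genes.

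The genes lying between the members of the 2 chromosome pairs gave 0 calls in any comparison. Over all genes the edgeR test called 1.37% in NCTD_IT and 0% in PTX_IT, in MIX_IT and in every IP comparison with the control. Between Il17ra and Mical3, 4 of 16 genes were tested, with medians of 0.33, 0.13 and 0.35 in NCTD_IT, PTX_IT and MIX_IT. Between Atrn and Slc23a2, 13 of 35 were tested, with medians of -0.17, 0.04 and -0.08. In the annotation, antisense transcripts overlap exons of Bahcc1, Mical3, Ino80d, Slc23a2 and Atrn, and the strand setting of the counting was not stated, so their reads cannot be told apart. The largest, Gm11772 opposite Bahcc1, held 671 counts over all tumors beside 4305 for Bahcc1. Ahnak2, Rere and Il17ra had no overlapping exon.

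Over the 23 tumors, each gene centred on its route, the profile most like the mean of the 8 was that of Prune1, an exopolyphosphatase (Pearson r = 0.93, among 12059 genes). Next came Rsrp1 and Smim30 (0.92 each), then Gid8, Camkk2, Gramd1b, Ubr4, Neat1, Ddi2 and Cdc37l1 (0.89 to 0.90). Of these 10 genes Prune1, Rsrp1, Smim30 and Gid8 lay below the longest length group, at 2464 to 3784 bases. Like the 8, Rsrp1 stood at 1.69, 0.98 and 1.29 in NCTD_IT, PTX_IT and MIX_IT and at -0.11 in the IP mean. For single genes the nearest profiles were Zfand6 for Bahcc1, Phldb3 for Ahnak2, Phf21a for Mical3, Rictor for Ino80d, Man2a1 for Rere, Neat1 for Slc23a2, Ubr4 for Il17ra and Galnt2 for Atrn, with r from 0.76 (Ahnak2) to 0.92 (Slc23a2 and Rere). Against the mean of the other 7, each gene gave r of 0.63 (Ahnak2) to 0.94 (Slc23a2 and Ino80d) over the 15 IT tumors, and 0.00 (Bahcc1) to 0.82 (Atrn) over the 8 IP tumors. These points share library, depth and group, the choice used the IT tumors, and the values are a description.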

How the data were processed

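The authors deposited 1 table of raw read counts per gene (56748 genes, 23 tumors, unit counts), with no normalization. Per the study's methods, polyA RNA was made into 3′ mRNA libraries, checked with FastQC, trimmed with Trimmomatic, and aligned to GRCm39 and counted with STAR 2.7.11b. The strand setting, the handling of reads with several matches and molecular identifiers are not given in the sources used here. Totals were 2861578 to 6702374 counts. 27684 genes had no count.

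Groups came from the labels. For each route the 4 groups were fitted together with edgeR 4.0.16 (limma 3.58.1, R 4.3.3): TMM scaling, filterByExpr (minimum count 10, minimum total 15), the quasi-likelihood F test and Benjamini-Hochberg adjustment over all genes tested (12424 IP, 12480 IT), threshold 0.05. Intervals are 95%. Likeness used log2 CPM (prior count 2). DESeq2, the study's tool, was an alternative, run here in version 1.42.0. It was fitted on the groups of each comparison alone and without filterByExpr. Other alternatives were DESeq2 size factors, no filter, all 23 tumors together, leaving out each tumor, Xist as a covariate and protein-coding genes alone. The test was tried on simulated data. The 8 genes, partner lists, marker lists and motifs were chosen with earlier results of these data known. Named genes were the 8, list members that were called or were the first 2 tested, Malat1, Neat1, Xist, Ddx3y and the nearest profiles. Start-site windows came from RefSeq, build GRCm38.p6.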

Additional observations from a re-analysis of the deposited data

Results flagged for a closer look

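In 3 of the 24 sets of 4 IT tumors (8 genes in CTRL_IT, NCTD_IT and MIX_IT), 1 tumor lay apart from the other 3. For a single set chance does so in about 1 in 20. The 24 sets share the same tumors and the genes moved together, so they are not separate trials and nothing is read from the count. Ino80d was highest in NCTD_IT tumor 18 (66.96 CPM). Il17ra was lowest in MIX_IT tumor 21 (34.25 CPM), and Atrn was lowest in CTRL_IT tumor 12 (42.44 CPM). Without that control the Atrn log2 fold changes were 0.82 in NCTD_IT, 0.66 in PTX_IT and 0.66 in MIX_IT.

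In 13 of 24 pairings of a gene and a drug, every IT tumor of the drug lay above the mean of its control and every IP tumor lay below the mean of its own control. These were 6 of the 8 genes under MIX, 3 under NCTD and 4 under PTX, beside 6.55%, 6.94% and 5.57% of the 12059 genes tested by both routes. Under MIX the log2 fold changes against the control of each route were 0.83 by IT and -0.29 by IP for Bahcc1, 0.52 by IT and -0.27 by IP for Mical3, 0.85 by IT and -0.10 by IP for Ino80d, 0.69 by IT and -0.10 by IP for Rere, 0.82 by IT and -0.47 by IP for Slc23a2, 0.75 by IT and -0.30 by IP for Atrn. Under NCTD the log2 fold changes against the control of each route were 1.39 by IT and -0.44 by IP for Ino80d, 0.53 by IT and -0.21 by IP for Rere, 0.91 by IT and -0.29 by IP for Atrn. Under PTX the log2 fold changes against the control of each route were 0.88 by IT and -0.41 by IP for Ino80d, 0.41 by IT and -0.34 by IP for Rere, 0.83 by IT and -0.36 by IP for Slc23a2, 0.76 by IT and -0.28 by IP for Atrn. The 13 pairings share their controls and the IT side chose the genes. The difference between routes was not tested, and route, solvent and batch cannot be told apart.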

How the results depend on the processing

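No paired analysis was possible because each tumor carries its own number, which no 2 groups share. For the members called higher in NCTD_IT (6 of 8), the count was 0 with log2 CPM of Xist as a covariate and 6 or 7 under the other settings, and leaving out each tumor gave 0 to 6. The MIX_IT count of 0 became 6 with DESeq2, 2 without a filter on low counts, 2 with the Xist covariate and 1 with all 23 tumors in one model. With the Xist covariate the median log2 fold change of the 8 was 0.39 in NCTD_IT and 0.16 in PTX_IT. The other medians, and the count of 0 in every IP comparison and in PTX_IT, kept within the spread between tumors or within 1.5 times under each setting run. In the mean of the IP drug groups, Ahnak2 was 0.039 relative to genes of its length, and leaving out each tumor gave -0.41 to 0.47 for Ahnak2, -0.045 to 0.23 for Bahcc1, -0.20 to 0.18 for Il17ra and -0.10 to 0.28 for Mical3, crossing 0 with no call. Of the values of single genes in the IT comparisons, 16 moved by more than the spread between tumors (with the Xist covariate or relative to genes of the same length) and 152 did not, and with the Xist covariate Ahnak2 in NCTD_IT (-0.07) and Il17ra (-0.14), Slc23a2 (-0.06) and Ino80d (-0.04) in PTX_IT changed sign. Leaving out a tumor moved none of 184 by more than that spread, although Il17ra and Slc23a2 in PTX_IT were 0.33 and 0.51 without tumor 15, against 0.65 and 0.83. A lone IP tumor left in a group is there assumed to vary like the others. The count of all genes called moved with the setting. It was 171 in NCTD_IT against 1380 with DESeq2, 1190 without a filter, 777 with all 23 tumors and 0 with the Xist covariate. The DESeq2 fits also differed from the main fit in the tumors and genes they used. In MIX_IT 0 became 230, 364, 9 and 22, and in PTX_IT 0 became 15 and 222 with DESeq2 and without a filter. By the IP route 0 became 11, 4 and 12 with DESeq2 and 71, 71 and 51 without a filter in NCTD_IP, PTX_IP and MIX_IP. The cause of these changes was not tested. With 2 tumors a group, IP differences smaller than the intervals given were not detectable.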

Other observations

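Gm10800, a gene of repeated sequence, was singled out after its values were seen. It stood at 204 to 377 CPM in CTRL_IT, 1112 to 2800.1 CPM in NCTD_IT, 695 to 1850 CPM in PTX_IT and 216 to 994 CPM in MIX_IT. By the IP route PTX_IP tumor 3 (1802 CPM) and NCTD_IP tumor 6 (3054 CPM) stood above the other 6 tumors (78.8 to 460.4 CPM). In these 2 tumors the mean log2 CPM of the 8 genes was 6.04 and 5.89, the highest of the 8 IP tumors. CTRL_IP tumors followed at 5.88 and 5.86.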
